A study of Mus musculus with 14 samples.

Results

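Guanylate-binding proteins (GBPs) and immunity-related GTPases (IRGs) are among the most abundant proteins that mouse cells make in answer to interferon gamma. Both families bind and hydrolyse GTP and assemble on the membranes of vacuoles that hold bacteria or parasites. GBPs coat and break such vacuoles and feed inflammasome activation, and IRGs strip and rupture the vacuole membrane. Transcription of both families is switched on through 2 kinds of promoter element, gamma-activated sites (GAS) and interferon-stimulated response elements (ISREs), the latter bound by IRF1 among others.

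The genes described here are 10 members of these families: Gbp2, Gbp3, Gbp4, Gbp5, Gbp6 and Gbp7 of the GBPs, and Igtp, Irgm1, Irgm2 and Iigp1 of the IRGs. Each was found as 1 of the 24732 features of both count tables by its symbol. The set was proposed from the measured values of the genotype comparison in these libraries, so that comparison is given as a description and not as a test of the members. The direction of its values there supports nothing by itself.

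The study measured RNA in 14 libraries of mice sampled at 52 weeks on a normal laboratory diet. HuBL mice, known from earlier work to carry a human apolipoprotein B100 transgene and to lack the LDL receptor, gave 3 aorta and 4 liver libraries. BT3xHuBL mice, in which BT3 is known from earlier work as a T cell receptor transgene against that human protein, also gave 3 aorta and 4 liver libraries. All groups therefore share the HuBL background, and no table feature names either transgene, so the genotype of a library could not be checked against its counts. The labels do not say that the libraries came from separate animals, and tests measure the spread between these libraries only. Libraries held 41933263 to 65539765 counts in aorta and 13228123 to 17992459 in liver. Levels are given as CPM, counts for each 1000000 counts of a library, scaled within a tissue by the trimmed mean of M values (TMM). The libraries were made near the 3′ ends of transcripts, so a count stands for a transcript without a correction for gene length. Hepatocyte markers summed to 115247 to 139022 CPM in HuBL liver and to 28.9 to 30.4 CPM in HuBL aorta, and smooth muscle markers to 26.0 to 46.7 and 13395 to 15652 CPM, as the tissue labels say.

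The genes lie on 4 chromosomes of the mouse genome, by GENCODE M21 on GRCm38. Gbp5 (chr3:142493978-142522344), Gbp7 (chr3:142530342-142550149), Gbp3 (chr3:142560026-142573209) and Gbp2 (chr3:142620602-142638008) follow each other on the plus strand. Gbp4 (chr5:105115767-105139586) and Gbp6 (chr5:105270702-105293698) lie on the minus strand, and Gbp4 overlaps Gbp8 and Gbp9 on the same strand. Irgm1 (chr11:48861968-48871683, minus strand), Igtp (chr11:58199556-58207591, plus strand) and Irgm2 (chr11:58199618-58222782, plus strand) share a chromosome, and Irgm1 lies far from Igtp and Irgm2. By these GENCODE spans Igtp and Irgm2 overlap, but the RefSeq promoter of Irgm2 read below lies past the end of Igtp. Iigp1 lies apart, on another chromosome.

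The promoters were read from RefSeq (GRCm38.p6), 250 bases before to 50 after the annotated start of the transcript. Entries matched 7 of the 10 genes by symbol: Gbp2, Gbp3, Gbp5, Gbp7, Igtp, Irgm1 and Irgm2. The core of the ISRE was searched as GAAANNGAAA on both strands and the core of the GAS as TTCNNNGAA, which reads the same on both strands. The 7 genes have 8 entries, since Gbp3 has 2. The ISRE core was found in 7 of the 8 entries, at least 1 for each gene, against 3.44% of 32851 mouse promoters of the same length; the second entry of Gbp3 holds neither motif. The GAS core was found in 4 of the 8 entries (Gbp5, Gbp7, Igtp and Irgm2), against 8.3% of promoters. The ISRE core of each gene is shown with 7 bases on each side, on the strand of the gene, because the ISRE is an element that IRF1 is known to bind. The capitals mark the core.
Gbp2, plus strand, chr3:142620597-142620620: cttttagTTTCACTTTCactgtct
Gbp3, plus strand, chr3:142559992-142560021: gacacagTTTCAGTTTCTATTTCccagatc
Gbp5, plus strand, chr3:142496762-142496785: tgtgtagTTTCAATTTCagtttag
Gbp7, plus strand, chr3:142530276-142530299: tgtgcagTTTCAGTTTCagttctc
Igtp, plus strand, chr11:58199515-58199538: aggaactGAAACTGAAAgctgttc
Irgm1, minus strand, chr11:48871428-48871457: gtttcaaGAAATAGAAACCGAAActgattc
Irgm2, plus strand, chr11:58214906-58214929: aggaactGAAACTGAAAgctgttc
In the 4 Gbp promoters the core reads on the opposite strand to the gene, and in the 3 IRG promoters on the same strand. Gbp3 and Irgm1 hold 2 overlapping matches each, and the 24 bases of Igtp and Irgm2 are identical at 24 of 24 positions. With the annotated start counted as 0, the core ends at -15 in Irgm1, at -25 in Igtp and at -30 in Gbp3, and it is farthest away in Gbp5, at -165 to -156. A match is a run of letters and not a binding site, and whether a factor occupied any of these sites was not measured.

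**Figure D1:**
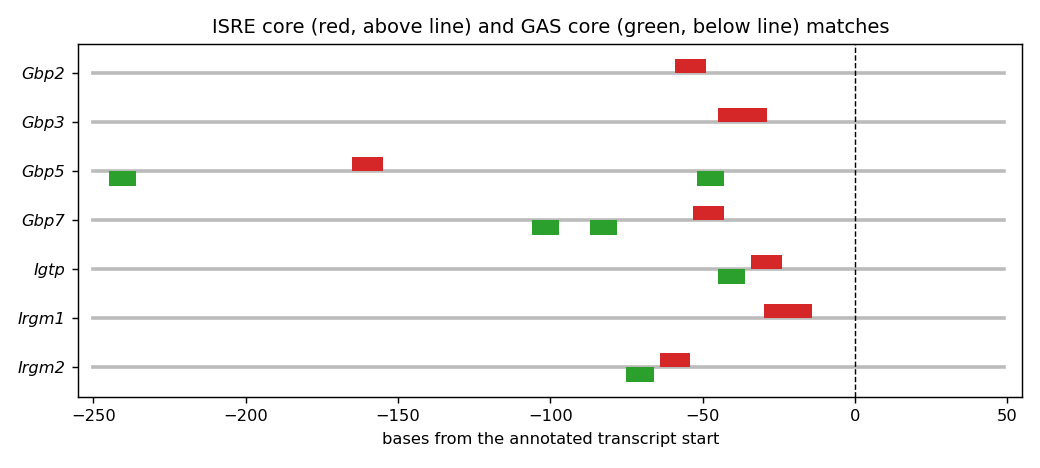
Positions of ISRE core matches (red, above each line) and GAS core matches (green, below) in the promoters of 7 members, by distance in bases from the annotated transcript start. All 7 lines carry a red block and the lines of Gbp5, Gbp7, Igtp and Irgm2 carry green blocks.

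For 9 of the 10 genes, all but Gbp5, the log2 fold change between the HuBL tissues was larger than that between the genotypes in either tissue. In HuBL liver Iigp1, an effector IRG that attacks vacuole membranes, was the most abundant of the 10 at 963, 1189, 1343 and 1000 CPM, and it took 49.8% ± 1.95 (SD, n = 4) of the summed CPM of the 10 genes. In HuBL aorta Gbp2, a GBP that targets vacuoles and bacteria, was the most abundant at 74.7, 64.1 and 70.2 CPM, with 22.6% ± 1.5 (SD, n = 3) of the sum, against 12.9% ± 1.54 for Iigp1. Gbp2 made up only 0.632% ± 0.0982 (SD, n = 4) of the sum in HuBL liver.

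In HuBL liver Irgm1 (316 ± 79.8 CPM, SD, n = 4), Igtp (258 ± 64.7) and Irgm2 (232 ± 50.4), the regulatory IRGs that hold effector IRGs inactive on the cell's own membranes, came next, and their ranges overlapped. Gbp3 (123 ± 29.6 CPM) and Gbp7 (120 ± 25.1) followed and overlapped each other, then Gbp6 (56.0 ± 12.9), then Gbp4 (19.9 ± 6.04), Gbp2 (14.5 ± 4.44) and Gbp5 (7.68 ± 2.58), each overlapping the next. In HuBL aorta Iigp1 (39.7 ± 6.28 CPM, SD, n = 3), Irgm1 (39.0 ± 1.11), Gbp3 (38.4 ± 5.67) and Irgm2 (35.3 ± 3.09) overlapped below Gbp2. Gbp7 (23.8 ± 3.56), Igtp (21.1 ± 2.36) and Gbp5 (17.7 ± 1.75) followed, each overlapping the next, and Gbp6 (14.5 ± 0.131) and Gbp4 (9.58 ± 0.766) stood apart below them.

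The 7 HuBL libraries were fitted together to compare the tissues, and 3 of them are also in the aorta comparison that the set was chosen from. By the quasi-likelihood test of edgeR, adjusted by Benjamini and Hochberg's method over 14445 features, 8 of the 10 genes were lower in aorta, where 39.2% of all features were higher in liver, and Gbp2 was higher in aorta, as were 44.5% of features. Iigp1 was 47.5-fold lower in aorta (log2 fold change -5.57, SE 0.19, adjusted p = 1.76e-10), Igtp 20.5-fold, Irgm1 13.6-fold, Irgm2 11.0-fold, Gbp7 8.42-fold, Gbp6 6.48-fold, Gbp3 5.39-fold and Gbp4 3.47-fold lower, all with an adjusted p of at most 9.95e-06. Gbp2 was 2.88-fold higher in aorta (log2 fold change 1.53, SE 0.20, adjusted p = 3.80e-05). Gbp5, the GBP tied to the NLRP3 inflammasome, gave 0.47 (SE 0.22) with an adjusted p of 0.0631. Without HuBL liver replicate 3 the Gbp5 value was 0.66 and passed, with an adjusted p of 0.00919. The tissue cannot be told apart from the library series, since each tissue has its own table and depth. Scaling by total counts alone moved the median of all features from 0.10 to 0.85 and the share of calls that were higher in aorta from 53.1% to 73.8%; relative to that shift the direction of all 10 genes stayed, and Gbp5 then passed at 1.23 (adjusted p = 0.000301).

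**Figure D2:**
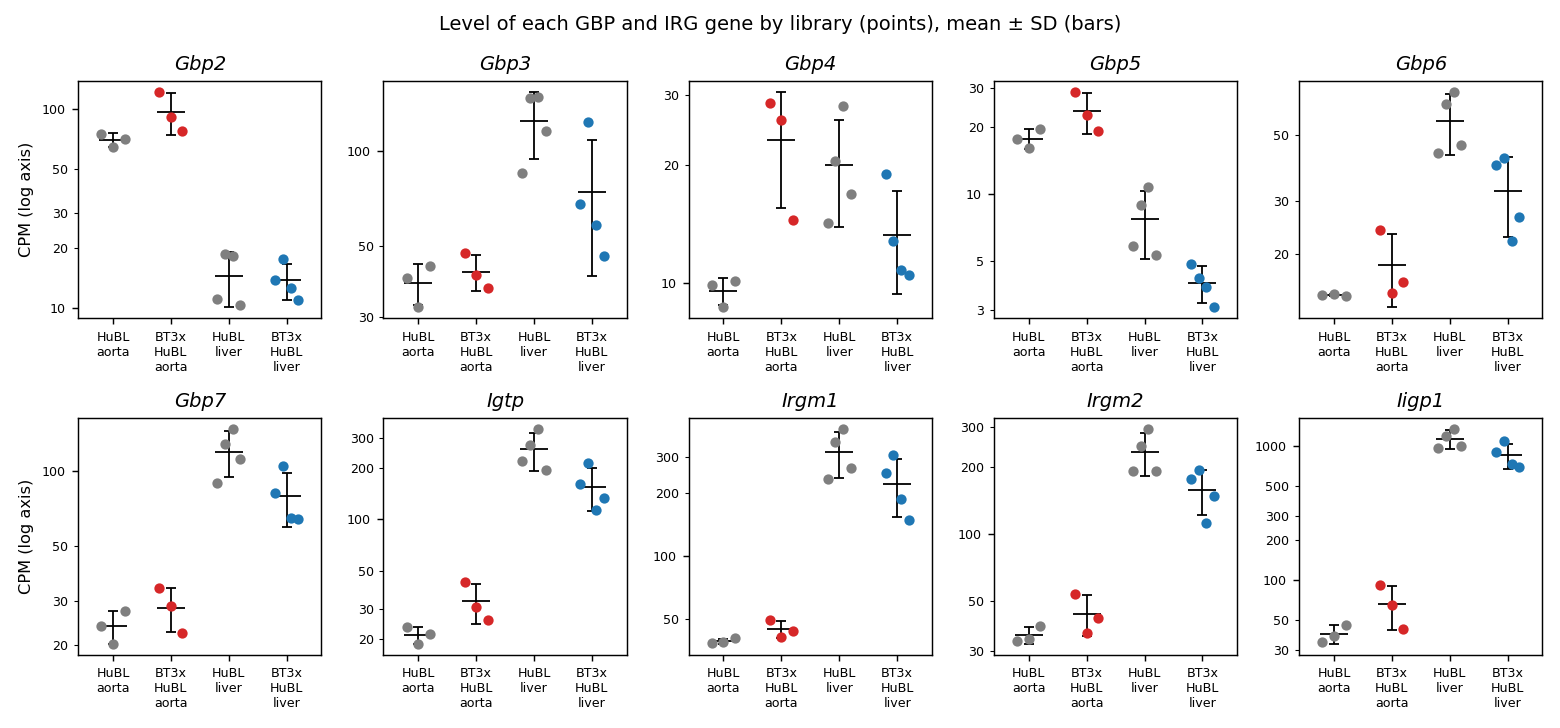
Level of each gene in each library (points; CPM, log axis) in the 4 groups, with the mean and SD as bars. The scale was set within each tissue. On it Gbp2 and Gbp5 sit higher in aorta than in liver and Igtp, Irgm1, Irgm2 and Iigp1 far lower. In the common fit of the HuBL tissues Gbp5 overlapped and was not called. The BT3xHuBL points sit toward the top in aorta and toward the bottom in liver.

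In aorta the 10 genes were higher in BT3xHuBL than in HuBL, with a median log2 fold change of 0.37 against -0.0044 over all 15400 tested features. That is the comparison the set was chosen from. Of the 10, 5 did not overlap between the genotypes (Gbp2, Gbp4, Gbp6, Igtp and Irgm1), beside 4.38% of all features that were higher without overlap. No member passed edgeR's adjusted threshold, which 0.026% of features (4) passed; 6 of 10 had an unadjusted p under 0.05 and were higher, beside 2.12% of features. DESeq2 called 68 features, and among them Gbp4 and Igtp.

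Gbp4, a GBP of the chromosome 5 cluster, was measured at 28.7, 26.0 and 14.5 CPM in BT3xHuBL aorta replicates 1, 2 and 3, and at 9.92, 8.70 and 10.1 CPM in HuBL aorta. All BT3xHuBL libraries lay above all HuBL libraries, and the log2 fold change was 1.26 (SE 0.24). Its adjusted p by edgeR was 0.427 in the main fit. Without BT3xHuBL replicate 3, the lowest of its group, the log2 fold change was 1.51. There edgeR called Gbp4, with an adjusted p of 0.00105 in a fit that called 27 features. No other fit that left out 1 aorta library called it, and the value went as low as 1.08. The set was chosen from this comparison, so that call is a description and not support. Of the 50-base runs in the last 500 bases of the GENCODE transcripts of Gbp4, 19.4% also occur in other genes. Among these are Gbp6, Gbp9, Gbp11, Gbp8 and Gbp10, and the labels do not say how such reads were counted.

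Igtp, a regulatory IRG, was measured at 43.0, 30.6 and 25.9 CPM in BT3xHuBL aorta and at 23.4, 18.7 and 21.2 CPM in HuBL aorta. The groups did not overlap, and the log2 fold change was 0.65 (SE 0.18). Gbp2 read 121, 91.2 and 77 CPM with BT3 against 74.7, 64.1 and 70.2 CPM without, a log2 fold change of 0.47 (SE 0.16). BT3xHuBL replicate 3 stood only just above the highest HuBL library for Gbp2.

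Iigp1 was measured at 91.3, 65.3 and 43.2 CPM in BT3xHuBL aorta and at 34.3, 38.2 and 46.6 CPM in HuBL aorta, a log2 fold change of 0.74 (SE 0.30). Here BT3xHuBL replicate 3 lay below the highest HuBL library. Irgm1 (49.3, 40.8 and 43.7 CPM against 38.1, 38.6 and 40.2) did not overlap, but its log2 fold change was only 0.19 (SE 0.09). Gbp6 did not overlap by a narrow margin, with BT3xHuBL at 24.0, 14.7 and 16 CPM and HuBL at 14.5, 14.6 and 14.4 CPM. The other 4 overlapped, with log2 fold changes of 0.12 (Gbp3), 0.25 (Gbp7), 0.32 (Irgm2) and 0.41 (Gbp5).

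BT3xHuBL aorta replicate 1 was the highest of the 6 aorta libraries for 10 of the 10 genes, and 1 library carried much of the difference. Without it, the median log2 fold change of the members was 0.19, and without replicate 3 it was 0.48. The 10 values stayed above 0 in each of the 6 fits that left out 1 aorta library, and Gbp3 came closest to 0, at 0.01.

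In liver the same 10 genes were lower in BT3xHuBL than in HuBL, with a median log2 fold change of -0.59 against 0.01 over all 12453 tested features. Gbp5 and Gbp6 did not overlap between the genotypes, beside 3.58% of features that were lower without overlap. No member passed edgeR's adjusted threshold, as did 0% of features, and the members' adjusted p ranged from 0.281 to 0.923; 7 of 10 had an unadjusted p under 0.05 and were lower, beside 5.38% of features. DESeq2 called 133 features, 35 higher and 98 lower, and among them Gbp5 and Gbp6.

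Gbp5 was measured at 5.81, 8.95, 10.7 and 5.29 CPM in HuBL liver and at 4.86, 4.16, 3.81 and 3.09 CPM in BT3xHuBL liver. All BT3xHuBL libraries lay below all HuBL libraries, and the log2 fold change was -0.94 (SE 0.25). Gbp6 read 43.7, 63.8, 70.1 and 46.5 CPM in HuBL liver, against 39.7, 41.8, 22.1 and 26.5 CPM with BT3, also without overlap, a log2 fold change of -0.78 (SE 0.23). Of the 50-base runs at the 3′ end of Gbp6, 77.8% also occur in Gbp10 and in the overlapping gene Gm43302, so the counts of Gbp6 and Gbp10 are uncertain. Gbp10 itself was 55.3 to 108 CPM in HuBL liver and 27.3 to 48.0 CPM in BT3xHuBL liver.

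Igtp was measured at 220, 275, 341 and 195 CPM in HuBL liver and at 162, 215, 113 and 133 CPM in BT3xHuBL liver. The groups overlapped through BT3xHuBL replicate 2, and the log2 fold change was -0.73 (SE 0.23). Iigp1 read 963, 1189, 1343 and 1000 CPM against 898, 1092, 737 and 690 CPM, with overlap, a log2 fold change of -0.40 (SE 0.16). Gbp3 had the widest spread for its mean in the BT3xHuBL livers, at 68.0, 123, 58.4 and 46.7 CPM, against 84.9, 146, 148 and 116 CPM in HuBL, a log2 fold change of -0.74 (SE 0.32). Irgm1, Irgm2, Gbp7 and Gbp4 overlapped too, at -0.50, -0.56, -0.60 and -0.58.

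Gbp2 was the exception among the liver values. It read 11.1, 18.6, 18.1 and 10.3 CPM in HuBL liver, against 13.8, 17.7, 12.6 and 11.0 CPM with BT3, a log2 fold change of -0.07 (SE 0.22). Its sign turned in 3 of the 8 fits that left out 1 liver library, reaching 0.07, while the other 9 genes stayed below 0 in each. Gbp2 and Gbp5, the 2 genes that were not lower in aorta than in liver, thus lay at opposite ends of the liver values.

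**Figure D3:**
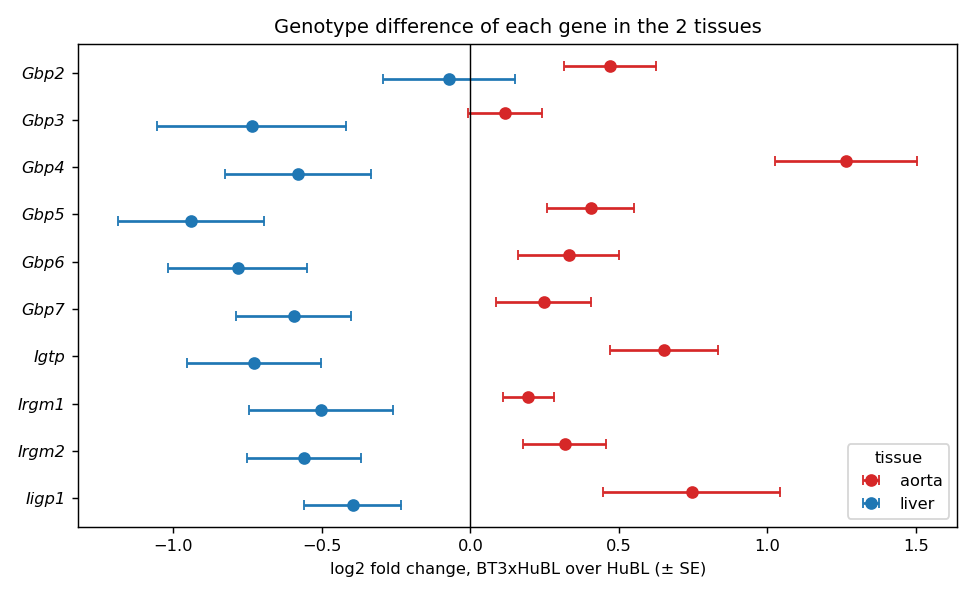
Log2 fold change of BT3xHuBL over HuBL for each gene (points) with its standard error (bars), in aorta (red) and liver (blue). The aorta points lie between 0.12 and 1.26 and the liver points between -0.94 and -0.07.

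The difference between the genotype effects of the 2 tissues was fitted on all 14 libraries over 11951 features. The aorta value exceeded the liver value for 10 of 10 genes, with a median difference of 1.01 on the log2 scale against a median of 0.00 over all features. It was 1.86 (SE 0.37) for Gbp4, 1.39 (SE 0.33) for Igtp, 1.35 (SE 0.31) for Gbp5 and 0.55 (SE 0.30) for Gbp2. This fit contains the aorta comparison from which the set was chosen, so these values too are a description. None of the 10 passed edgeR's adjusted threshold, as did 0% of features, with adjusted p from 0.210 to 0.644; 9 of 10 had an unadjusted p under 0.05, beside 4.48% of features with a more positive value in aorta. DESeq2 called 42 features, and among them Igtp and Iigp1.

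Within a tissue the 10 genes went up and down together from library to library. Of 45 pairs of members, 45 had a positive correlation of log2 CPM in aorta (median Pearson r 0.84, 6 libraries) and 45 in liver (median 0.89, 8 libraries). These correlations are a description: the points share their libraries and scaling, and the genotype difference enters them. Mean z-scores over the 10 genes were 1.65, 0.31 and -0.14 in BT3xHuBL aorta replicates 1, 2 and 3, and -0.59, -0.99 and -0.24 in HuBL aorta. BT3xHuBL replicate 3 therefore lay next to HuBL replicate 3. In liver, HuBL replicates 2 and 3 stood highest at 1.01 and 1.43, HuBL replicates 1 and 4 lay at -0.11 and 0.06, and BT3xHuBL replicates 3 and 4 stood lowest at -1.16 and -1.24. BT3xHuBL livers 1 and 2, at -0.21 and 0.22, lay close to HuBL livers 1 and 4.

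**Figure D4:**
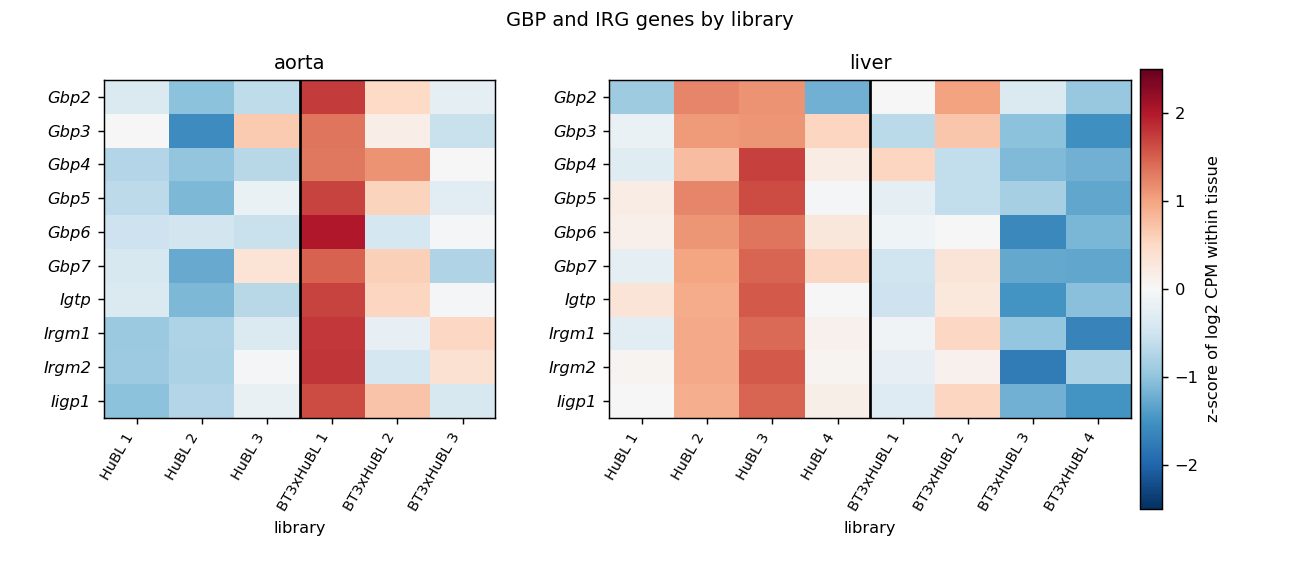
Z-score of log2 CPM within each tissue for the 10 genes (rows) in each library (columns), HuBL left and BT3xHuBL right of the black line. BT3xHuBL aorta 1 is red in all 10 rows, as are HuBL livers 2 and 3, and BT3xHuBL livers 3 and 4 are blue in all 10 rows.

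The features most like the mean of the members across libraries differed between the tissues. Among features of at least 5 CPM, the 5 with the highest Pearson r over 6 aorta libraries were Dcaf8 (0.99), Tgtp2 (0.99), Prcc (0.98), Flot2 (0.98) and Rnf31 (0.98), of which Tgtp2 is a GTPase of the IRG family. Over 8 liver libraries 4 of the 5 were Samhd1 (0.98), Dhx58 (0.98), Parp14 (0.98) and Enpp5 (0.98), of which Samhd1, Dhx58 and Parp14 are interferon-induced. With 6 and 8 libraries and 10839 and 9168 features searched, this ranking is a description.

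The other members of the 2 families were measured beside these. In aorta 7 of 7 tested lay at or above 0, with a median log2 fold change of 0.37: Tgtp2 0.78 (SE 0.21), Gbp11 1.62 (SE 0.81), Gbp8 0.71 (SE 0.37), Gbp10 0.37 (SE 0.40), Ifi47 0.22 (SE 0.15), Gbp9 0.10 (SE 0.20) and Irgq 0.00 (SE 0.09). Gbp11 read only 0.109 to 0.490 CPM in HuBL aorta and 0.195 to 1.84 CPM in BT3xHuBL aorta, with overlap. In liver 7 of 8 lay below 0, with a median of -0.50: Gbp10 -1.12 (SE 0.26), Gbp9 -0.78 (SE 0.40), Tgtp2 -0.55 (SE 0.43), Gbp11 -0.53 (SE 0.50), Gbp8 -0.46 (SE 0.20), Ifi47 -0.39 (SE 0.23) and Gbp2b -0.32 (SE 0.24). Irgq, a relative of the family that is not interferon-induced, was the one above 0, at 0.26 (SE 0.11). None of these passed edgeR's adjusted threshold in either tissue, and 1 of 7 in aorta (Tgtp2) and 3 of 8 in liver (Gbp10 and Gbp8, lower, and Irgq, higher) had an unadjusted p under 0.05. Over all features that held for 629 of 15400 in aorta and 1381 of 12453 in liver, the background for the counts of the lists that follow too. The values of Tgtp2 come from 1 feature. Another feature of Tgtp2 and the feature of Tgtp1 had 0 counts in all libraries, so which of these genes the counts came from is uncertain. In liver the counted feature had only 8 to 32 counts in a library.

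Upstream of the 10 genes, interferon gamma itself was near the limit of counting. Ifng, the gene of the cytokine, had at most 11 counts in an aorta library and at most 6 in a liver library. The receptor genes Ifngr1 and Ifngr2 and the kinase genes Jak1 and Jak2, which pass the signal on, had log2 fold changes in aorta of 0.06, -0.01, -0.05 and -0.07, and in liver of -0.03, -0.13, 0.06 and -0.07. The transcription factor genes Irf1 and Irf8 were at 0.13 and 0.09 in aorta, and at -0.38 (SE 0.08) and -0.13 (SE 0.15) in liver. Irf1 did not overlap between the liver groups. Socs1, the feedback inhibitor of the pathway, was at -0.02 in aorta and at -2.05 (SE 0.49) in liver, where HuBL read 1.46 to 6.47 CPM and BT3xHuBL 0.463 to 1.10 CPM. Over the 12 aorta and 11 liver genes of this list that were tested, 6 and 1 lay above 0, and none passed edgeR's adjusted threshold, with 0 and 5 at an unadjusted p under 0.05.

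Other targets of interferon gamma were measured in both tissues, and the genes named here and for the type I list are those of smallest p, not of largest change. In aorta 17 of 22 lay above 0 with a median of 0.14, among them Serpina3g (0.93, SE 0.23), Tgtp2, Ubd (1.24, SE 0.58) and Irg1 (0.79, SE 0.42). In liver 22 of 22 lay below 0 with a median of -0.43. Among them were Psme2 (-0.40, SE 0.08) and Ubd (-1.43, SE 0.24), a ubiquitin-like modifier. Psmb8 (-0.46, SE 0.09) and Psmb9 (-0.60, SE 0.12) of the immunoproteasome were too. Tgtp2 and Ifi47, and in liver Gbp2b too, are counted in both this list and the family list. Of the genes of the type I interferon response, 24 of 24 lay below 0 in aorta, from -0.75 to -0.08 with a median of -0.27, among them Irf7 (-0.50, SE 0.14), Mx2 (-0.74, SE 0.21), Isg15 (-0.68, SE 0.19) and Cmpk2 (-0.53, SE 0.18). In liver 24 of 24 lay below 0, from -1.50 (Oas3) to -0.35 with a median of -0.97, among them Bst2 (-0.58, SE 0.10), Mx2 (-1.14, SE 0.27), Xaf1 (-0.84, SE 0.22) and Irf7 (-0.70, SE 0.20). None of these genes passed edgeR's adjusted threshold in either tissue. At an unadjusted p under 0.05 stood 2 and 11 of the interferon gamma targets in aorta and liver, and 8 and 12 of the type I targets.

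Autophagy genes through which GBPs and IRGs are loaded onto membranes were measured as well. In aorta 10 of 10 lay between -0.11 and 0.09, with a median of 0.04. In liver their median was -0.10, and 7 of 10 lay below 0. Atg7, at -0.41 (SE 0.12), and Atg5, at -0.23 (SE 0.08), were lower without overlap between the liver groups, though neither passed edgeR's adjusted threshold.

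**Figure D5:**
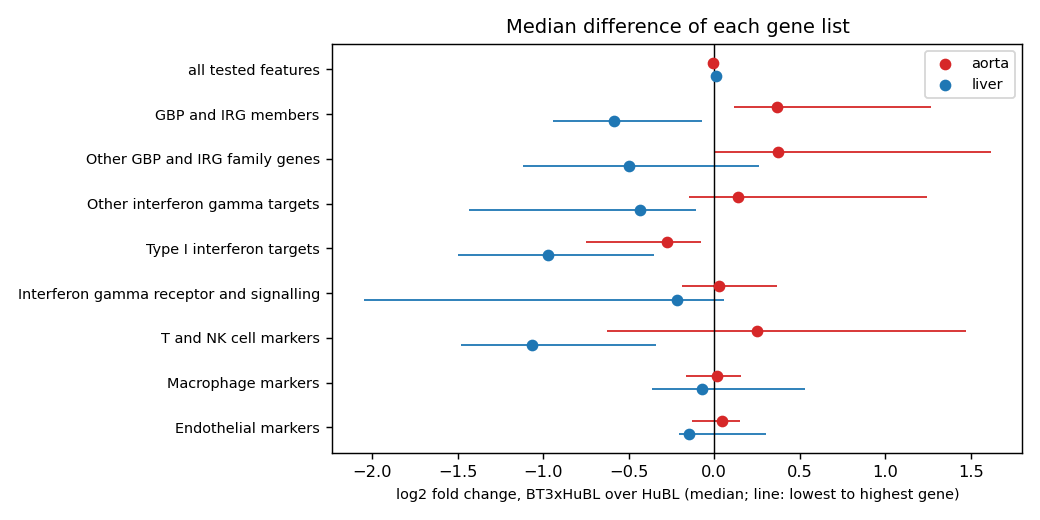
Median log2 fold change of BT3xHuBL over HuBL (points) for each gene list in aorta (red) and liver (blue), with a line from its lowest to its highest gene. The members lie at 0.37 and -0.59, and the type I interferon targets at -0.27 and -0.97, on the same side in both tissues.

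The summed markers of T and NK cells differed between the liver groups in the same direction as the 10 genes. In bulk tissue fewer cells of a type and less RNA per cell cannot be told apart. T and NK cell markers summed to 31.7 to 55.5 CPM in HuBL liver and to 16.1 to 26.3 CPM in BT3xHuBL liver without overlap. All 11 of 11 tested lay below 0, among them Cd3d (-1.48, SE 0.49), Cd4 (-1.34, SE 0.36) and Ccl5 (-1.24, SE 0.20). Ncr1, Klrb1c and Prf1 had too few counts in liver to be tested. Their means were 0.241, 0.470 and 0.372 CPM in HuBL liver and 0.399, 0.549 and 0.363 CPM in BT3xHuBL liver. The means of Ncr1 and Klrb1c, genes of NK cells, were thus not lower. Ccl5, a chemokine gene, alone averaged 19.9 of a mean sum of 42.8 CPM in HuBL liver, and 8.43 of 21.8 CPM in BT3xHuBL liver. Cd3d had only 2 to 28 counts in a liver library. By replicate the sum was 43.0, 41.0, 55.5 and 31.7 CPM in HuBL liver and 21.4, 26.3, 23.3 and 16.1 CPM in BT3xHuBL liver. HuBL replicate 3 and BT3xHuBL replicate 4 held the extremes of both this sum and the members' mean z-score, but the order between them differed: HuBL replicate 1 was second by the sum and below the mean by the z-score. In aorta the sum was 44.9, 39.4 and 24.8 CPM in BT3xHuBL replicates 1, 2 and 3 and 29.7, 37.5 and 35.6 CPM in HuBL. There 11 of 14 markers lay above 0, the highest being Gzma (1.47, SE 0.58), at 6 to 59 counts in a library. The 3 below 0 were Cd8b1 (-0.63, SE 0.53), Cd8a (-0.59, SE 0.34) and Cd3d (-0.04, SE 0.31). Adipocyte markers had 6 of 6 above 0 in aorta with a median of 0.44, and summed to 380, 236 and 237 CPM in BT3xHuBL aorta replicates 1, 2 and 3 and to 190, 303 and 167 CPM in HuBL; their highest library was thus also that of the 10 genes. No T and NK cell marker in the tables was at 0 in all libraries of a group. Macrophage markers summed to 7832 to 9231 CPM in HuBL aorta and to 7255 to 9256 CPM in BT3xHuBL aorta, and to 254 to 367 and 204 to 356 CPM in the livers, with overlap in both tissues. B cell markers were lower in BT3xHuBL aorta, at 39.4 to 48.5 CPM against 50.4 to 61.8 CPM, and overlapped in liver, at 9.48 to 15.6 CPM against 9.72 to 19.7 CPM in HuBL. Cd22, which overlapped, alone averaged 39.5 of a mean sum of 55.8 CPM in HuBL aorta, and 35.3 of 43.1 CPM in BT3xHuBL aorta. In aorta 8 of 8 B cell markers lay below 0, with a median of -0.96. Fibroblast markers summed to 9080 to 9349 CPM in BT3xHuBL aorta and to 9654 to 10359 CPM in HuBL aorta. In liver the fibroblast sums overlapped, at 170 to 264 CPM in BT3xHuBL and 170 to 197 CPM in HuBL. There 5 of 5 tested fibroblast markers lay above 0, with a median of 0.67, opposite to the 10 genes. The part of these cells in the levels of the 10 genes was not tested.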

How the data were processed

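The 14 libraries of aorta and liver RNA were put in 4 groups from their labelled tissue and genotype. Per the labels' protocols, libraries were made with Lexogen QuantSeq V2. The values deposited are raw counts per feature; per the submitters' processing notes, HTSeq 2.0 and GRCm38 were used, and no source used here gives the aligner, the strand setting or the annotation. The tables' own coordinates did not match GRCm38, so positions come from GENCODE M21 by symbol. The feature name of Gbp2 carries a suffix, IMP_OVL, and no source used here gives its meaning.

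Separate fits for the tissues used edgeR 4.0.16, run under R 4.3.3, with filterByExpr (TMM, robust quasi-likelihood F-test, two-sided, Benjamini-Hochberg over all tested features, threshold 0.05). All 10 members passed the filter in each fit. Fold changes use a prior count of 0.125, and log2 CPM for z-scores and correlations a prior count of 2. The alternatives were DESeq2 1.42.0, other scalings and filters, leaving out each library and a replicate block; the code was tested on simulated data. Same-numbered libraries of the 2 genotypes did not deviate together in all pairs (r of -0.09 to 0.19), so the numbers were not used as pairs. The members and the gene lists were chosen with earlier results of these data known. For the liver a test of the members was planned; its result is given as counts beside all features. Named are all members, all tested genes of the other family list and fixed genes of the interferon gamma list. Of each other interferon list, up to 4 genes of smallest p per tissue are named. Atg5, Atg7, Ccl5, Cd3d, Cd4, Cd8a, Cd8b1, Cd22, Gzma, Klrb1c, Ncr1, Oas3 and Prf1 were named after their values were seen. The length of the 3′ runs compared, 50 bases in the last 500, was set after the files were seen. No library repeated another. The result for 1 gene is not reported here.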

Additional observations from a re-analysis of the deposited data

How the results depend on the processing

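The medians over the 10 genes kept their direction in every alternative run, and no call of a member turned to the other direction. In aorta the median ranged from 0.19 to 0.48 and in liver from -0.73 to -0.44 when 1 library was left out. The number of features called in aorta was 4, and 68 with DESeq2 (2 members), 9 with no filter on low counts and 14 with the replicate block; leaving out 1 library gave 0 to 27 features and 0 to 1 members. It was 0 without HuBL aorta replicate 2 or 3, 2 without HuBL aorta replicate 1, and 27 without BT3xHuBL aorta replicate 3. In liver 0 features were called, and 133 with DESeq2 (2 members) and 10 with the replicate block; leaving out 1 library gave 0 to 5, with 5 without BT3xHuBL liver replicate 2 and 2 without replicate 3. For the difference between tissues 0 were called, and 42 with DESeq2 (2 members) and 3 with the replicate block; leaving out 1 library gave 0 to 4, with 4 without BT3xHuBL liver replicate 2. The cause was not tested. Of the single genes, Gbp2 in liver, never called, turned above 0 in 3 fits without 1 library. The replicate block called 0 members in the 3 genotype fits. Between the HuBL tissues, total counts alone moved the members' median from -2.88 to -2.13, and Gbp5 passed the threshold at a mean of at least 5 CPM (0.56, adjusted p = 0.0379 by edgeR). By the rule set for each, 158 comparison values and 587 gene values counted as unchanged. Another 19 comparison values counted as moved, and 3 gene values as stronger. For a gene between the HuBL tissues, the rule for unchanged was the same direction and side of the threshold. For a gene in the genotype fits it was a log2 fold change that moved by less than the SD within groups. The members that DESeq2 called in those fits therefore count as unchanged too. For comparison values it was a count within a set ratio, or a median that moved by less than such an SD. A fit that leaves out 1 aorta library rests on 2 libraries in a group.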
